A study of Homo sapiens with 2 samples.

Results

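The mitochondrial contact site and cristae organising system (MICOS) was examined at the transcript level through its 7 subunit genes in HEK293 cells with and without the ER kinase PERK. The genes were taken by symbol, as MINOS1 (MIC10), C19orf70 (MIC13), APOO (MIC26), APOOL (MIC27), IMMT (MIC60), CHCHD3 (MIC19) and CHCHD6 (MIC25), and each matched a single row among the 25277 rows of the gene tables. HEK293 is an immortalised human embryonic kidney line. WT cells and PERK-KO cells (passage 15 to 20) had been kept for 12 h in OXPHOS medium, a glucose-free DMEM with 10% FBS, 1 mM pyruvate and 10 mM galactose, and the knockout line came from single cells seeded after cutting with Cas9 under guides against EIF2AK3, so that clonal differences and loss of PERK cannot be told apart. There was 1 library per genotype, and no difference could be tested between cultures. In such bulk RNA, fewer cells with a transcript and less of it per cell cannot be told apart.

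MICOS sits in the mitochondrial inner membrane at crista junctions, the narrow necks through which each crista opens to the intermembrane space. MIC60 anchors a subcomplex with the CHCH-domain proteins MIC19 and MIC25 and reaches the outer membrane through SAM50. MIC10 bends the membrane by forming oligomers, and MIC26 and MIC27, a pair of apolipoprotein-like proteins, belong to the same subcomplex, which MIC13 joins to the MIC60 side. Loss of MIC10, MIC13 or MIC60 is known to detach cristae from the boundary membrane.

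Expression is given as FPKM, a fragment count divided by transcript length and sequencing depth, so that levels can be compared between genes within a library. The limits in parentheses are the deposited confidence limits, which cover the counting and assignment error of 1 library and not the spread between cultures. Read totals are not in the tables. The half-width of the interval was 4.38% to 7.61% of the value for the members in WT cells against 4.62% to 9.08% in PERK-KO cells. The median over genes that reached 1 FPKM in both was 8.67% and 8.99%. Such widths equal those of Poisson counts of 690 to 2081 fragments per member in WT cells against 485 to 1872 in PERK-KO cells. EIF2AK3, the targeted gene, had 5.61 FPKM (5.11 to 6.12) in WT cells against 3.89 (3.44 to 4.34) in PERK-KO cells, which is a transcript level and not a measure of the protein. Of 8 markers listed for HEK293 cells, VIM, KRT18, CDH2 and NEFL were expressed in both libraries. All of these were lower in PERK-KO cells with confidence intervals apart, at log2 ratios of -0.14, -0.24, -0.14 and -0.42. PAX2 stayed below 1 FPKM in both libraries. IRS4, a receptor substrate known to be abundant in HEK293 cells, had 0.121 FPKM (0.0404 to 0.202) in the WT library and 27.1 (25.8 to 28.4) in the PERK-KO library. INA and NEFM, which encode neurofilament-type proteins, differed in the same direction, with 0.458 and 0.662 FPKM in WT cells against 4.13 and 5.21 in PERK-KO cells. Markers of other cell types summed to 8.27 FPKM in WT cells against 4.73 in PERK-KO cells over 7 genes, with UCP1, CIDEA and ALB listed at 0 in both, and COL3A1, a fibroblast collagen, made up most of that difference with 5.13 and 1.77 FPKM. The part of these line differences in the MICOS values was not tested.

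The MIC10 side of the complex was lower in PERK-KO cells, apart from APOOL, and the MIC60 side was nearly level except for CHCHD6. MINOS1 encodes the membrane-bending subunit MIC10 and had 29.9 FPKM (28.1 to 31.6) in WT cells against 19.6 (18.2 to 21.0) in PERK-KO cells. Its log2 ratio of PERK-KO over WT was -0.61, with an interval of -0.74 to -0.47 from the limits of both libraries. C19orf70, which encodes the bridging subunit MIC13, had 139 FPKM (131 to 148) and 93.0 (86.2 to 99.7), a log2 ratio of -0.58 (-0.72 to -0.45). These 2 genes passed the study's threshold of 1.49-fold, at 1.52-fold and 1.498-fold lower, and the intervals of both reach across that threshold.

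APOO encodes MIC26 and had 103 FPKM (96.8 to 108) in WT cells against 76.2 (71.2 to 81.3) in PERK-KO cells, a log2 ratio of -0.43 (-0.55 to -0.30). Its relative APOOL encodes MIC27 and had 7.87 FPKM (7.27 to 8.47) and 9.98 (9.25 to 10.7), a log2 ratio of 0.34 (0.19 to 0.50). APOOL was thus the single member above its WT level by more than its interval, and it was also the least abundant member in each library. On the MIC60 side, IMMT had 65.8 FPKM (62.9 to 68.7) and 65.1 (62.1 to 68.1), with a log2 ratio of -0.01 (-0.11 to 0.08). CHCHD3, which encodes MIC19, had 65.9 (62.9 to 69.0) and 64.6 (61.4 to 67.9), with a log2 ratio of -0.03 (-0.13 to 0.07). For IMMT and CHCHD3 the intervals of the ratio thus span 0. CHCHD6, which encodes the MIC19 paralog MIC25, had 45.7 FPKM (42.3 to 49.0) and 34.2 (31.1 to 37.3), a log2 ratio of -0.42 (-0.59 to -0.25).

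**Figure D1:**
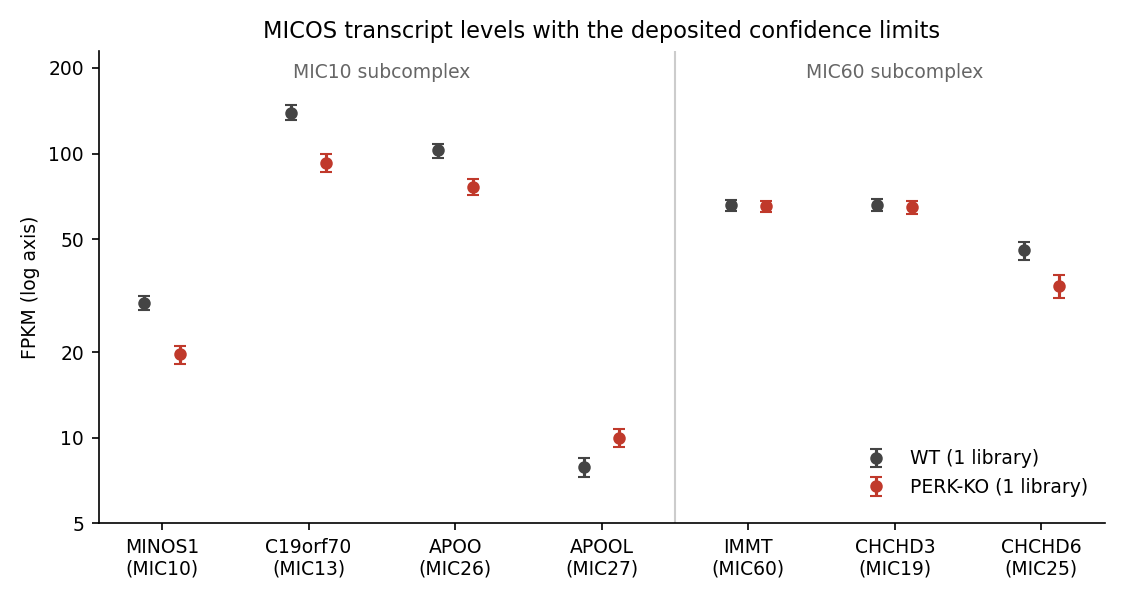
FPKM of the 7 MICOS genes on a log axis in WT cells (grey) and PERK-KO cells (red), 1 library each, where points are the deposited values and bars their confidence limits. MINOS1, C19orf70, APOO and CHCHD6 sit lower in PERK-KO cells with bars apart, APOOL sits higher, and IMMT and CHCHD3 overlap.

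Counted over the complex, 2 of the 7 members were lower past 1.49-fold, where 7.83% of the 14594 genes that reached 1 FPKM in one library or both were. No member was higher past that fold, where 10.5% of all genes were. The ratios of all genes moved with transcript length, as given below. The length class of C19orf70 had a median log2 ratio of -0.39 and a lower quartile of -0.68. That of MINOS1 had 0.08 and -0.14. The part of length in this count was not tested. Confidence intervals were apart in 4 members with the lower value in PERK-KO cells, a state found in 18.7% of all genes, and in 1 member with the higher value there, found in 26.1%. The median log2 ratio of the members was -0.42, beside 0.04 over all genes (interquartile range -0.23 to 0.31). Summed over the 7 genes, MICOS transcripts came to 457 FPKM (445 to 469) in WT cells against 363 (353 to 373) in PERK-KO cells, a log2 ratio of -0.33 (-0.39 to -0.28). The sum for the MIC10 subcomplex went from 280 FPKM in WT cells to 199 in PERK-KO cells, 1.41-fold lower, and that for the MIC60 subcomplex from 177 to 164, 1.08-fold lower. The median log2 ratios of the subcomplexes differed by -0.48.

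These ratios between libraries depend on how the libraries are scaled, and conversion to TPM ended the calls. When FPKM was converted to TPM, by dividing by the sum over all rows, with or without small RNA genes, no member passed 1.49-fold. The share of all genes past that fold after conversion is not given here. Over all rows, the median log2 ratio of all genes shifted by 0.20, to 0.24. MINOS1 was then 1.32-fold and C19orf70 1.30-fold lower, and IMMT and CHCHD3 turned to log2 ratios of 0.19 and 0.17. The order of the members among themselves is the same under every scaling.

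Stoichiometry within a library does not depend on that choice. Its differences between the libraries still carry any trend with transcript length, which is given below and whose part was not tested. In WT cells the order of levels was C19orf70, APOO, CHCHD3, IMMT, CHCHD6, MINOS1 and APOOL, and each neighbouring pair had intervals apart except CHCHD3 and IMMT. A readthrough row that shares its start with MINOS1 is not counted in this order. The same order held in PERK-KO cells, but for IMMT and CHCHD3 changing places within overlapping intervals. C19orf70 made up 30.5% of the summed MICOS FPKM in WT cells against 25.6% in PERK-KO cells, while IMMT went from 14.4% to 18.0% and CHCHD3 from 14.4% to 17.8%. APOOL contributed 1.72% and 2.75%. Among all expressed genes the level of MINOS1 lay at percentile 77.1 in the WT library and 67.1 in the PERK-KO library, a wider step than those of the other members, and C19orf70 was at percentiles 94.7 and 92.6.

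Relative to IMMT, the scaffold of the complex, 3 genes of the MIC10 side were lower in PERK-KO cells. C19orf70 had 2.12 FPKM per FPKM of IMMT in WT cells (1.96 to 2.28) against 1.43 in PERK-KO cells (1.31 to 1.56). APOO had 1.56 (1.45 to 1.68) and 1.17 (1.08 to 1.27). MINOS1 had 0.454 (0.422 to 0.489) and 0.301 (0.277 to 0.328). In these 3 genes the intervals of the libraries were apart. CHCHD6 went from 0.694 (0.637 to 0.756) to 0.525 (0.474 to 0.581), and APOOL from 0.120 (0.110 to 0.131) to 0.153 (0.141 to 0.167), again without overlap. CHCHD3 stayed at 1.0 (0.940 to 1.07) and 0.992 (0.927 to 1.06) per IMMT, and its log2 change of -0.01 had an interval of -0.15 to 0.12.

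**Figure D2:**
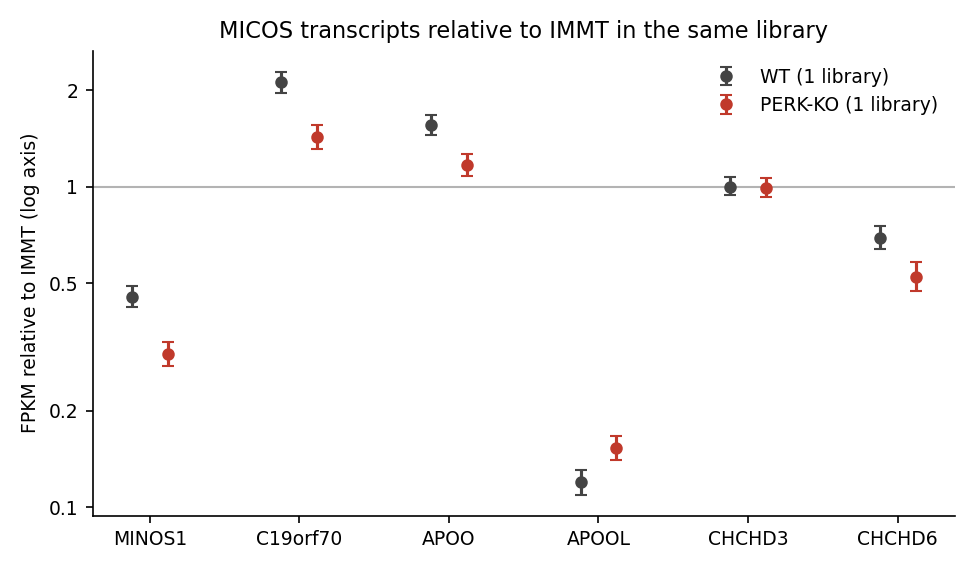
FPKM of 6 MICOS genes divided by the FPKM of IMMT in the same library, on a log axis, in WT cells (grey) and PERK-KO cells (red), with bars from the confidence limits of both genes. CHCHD3 stays at the line of equal level with IMMT, C19orf70 goes from 2.12 to 1.43, and APOOL alone moves upwards.

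The proportions within the 2 pairs of related subunits differed between the libraries. APOO was 13 times as abundant as APOOL in WT cells (11.9 to 14.3) against 7.64 times in PERK-KO cells (6.92 to 8.43), a log2 change of -0.77 (-0.97 to -0.57). CHCHD3 exceeded CHCHD6 by 1.44-fold in WT cells (1.32 to 1.58) against 1.89-fold in PERK-KO cells (1.71 to 2.10). The log2 change of that proportion was 0.39 (0.19 to 0.58). The paired transcripts differ in length, and the ratios of all genes moved with length, as given below. Median log2 ratios of all genes in the length class were -0.225 for APOO and 0.30 for APOOL. They were -0.13 for CHCHD3 and -0.38 for CHCHD6. The part of length in these proportions was not tested.

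The MINOS1 value rests on an assignment between overlapping gene models. MINOS1 lies on the plus strand of chromosome 1 from 19923471 to 19956315 (GRCh37), and the tables hold a further row, C1orf151-NBL1, from 19923471 to 19984949, which is a readthrough into the neighbouring gene NBL1 and carries the same transcription start identifier. That row had 28.1 FPKM (26.0 to 30.3) in WT cells against 18.0 (16.1 to 19.9) in PERK-KO cells, a log2 ratio of -0.65 (-0.83 to -0.46), nearly as high as MINOS1 itself in each library. NBL1 had 7.18 FPKM (5.94 to 8.43) and 8.53 (7.13 to 9.92), with overlapping intervals. In GENCODE 44 the canonical transcript of MINOS1, now named MICOS10, has 4 exons and 3723 bases, of which 93.7% is non-coding, and its last exon holds 3434 bases. The 3 readthrough transcripts span 590 to 999 bases and cover only 7.82% of the canonical transcript but 91.0% of its 234 coding bases, so that fragments from the coding exons fit either row. With the rows added together, the MIC10 locus had 58.0 FPKM (55.2 to 60.8) in WT cells against 37.6 (35.3 to 39.9) in PERK-KO cells, 1.54-fold lower. Per FPKM of IMMT the joint value was 0.882 in WT cells (0.826 to 0.941) against 0.578 in PERK-KO cells (0.535 to 0.624), higher than MINOS1 alone in each library, with a ratio between libraries close to that of MINOS1. The joint value would place the MIC10 locus above CHCHD6 in both libraries, with intervals apart in WT cells and overlapping in PERK-KO cells.

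Rows that overlap or adjoin the other members had at most 2.80 FPKM in either library. C19orf70, on chromosome 19 (minus strand) from 5678433 to 5680911, overlaps HSD11B1L by 136 bases at its start, and HSD11B1L had 2.80 FPKM in WT cells against 2.24 in PERK-KO cells. APOOL, on the plus strand of the X chromosome from 84258898 to 84348323, overlaps SATL1 by 1032 bases. SATL1 had 1.73 and 1.48 FPKM, beside 7.87 and 9.98 for APOOL, the least abundant member. APOO lies on the minus strand of the X chromosome from 23851465 to 23926057, and CXorf58 begins 65 bases beyond its start with 0.405 and 0.252 FPKM. IMMT, on chromosome 2 (minus strand) from 86371055 to 86422893, holds MIR4779, listed at 0 in both libraries. CHCHD3, on chromosome 7 (minus strand) from 132469623 to 132766828, and CHCHD6, on the plus strand of chromosome 3 from 126423063 to 126679263, had none within 1000 bases. Whether strand was kept in counting is not given in the sources used here, so reads from overlapping rows cannot be told apart.

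GABPα, the ETS-family factor that the study followed, binds a GGAA core, and the promoters of the members were therefore read for CCGGAAG on both strands. The paper itself lists MIC10 as lower in the PERK-deficient HEK293 cells. That listing comes from its HEK293 RNA sequencing, the data used here, and is not separate evidence. From public chromatin immunoprecipitation data the paper also names MIC10, MIC26, MIC60 and MIC19 among the targets of GABPα. RefSeq windows from 250 bases before to 50 after the start (GRCh38.p14) were available for all 7 genes, with 2 for C19orf70, and each matched GRCh37 at a single place. The motif was present in 3 of the 7 members, MINOS1, APOO and IMMT, beside 12.8% of 22198 protein-coding promoters and 10.3% of all 35116 windows. The matches are shown so that their letters, place and strand can be read. They are printed 5′ to 3′ on the strand of the gene with the motif, or its reverse complement CTTCCGG, in capitals.

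MINOS1, chr1:19923375-19923403 (GRCh37), plus strand: aactgaaaaaaCCGGAAGggatggaagca

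APOO, chrX:23926285-23926305 (GRCh37), minus strand: cggCTTCCGGctgcgaagctt

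IMMT, chr2:86422780-86422808 (GRCh37), minus strand: cctagtaacccCTTCCGGataaggacctg

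IMMT, chr2:86422601-86422629 (GRCh37), minus strand: cgtccgctgtgCTTCCGGtgcgccgggcg

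Counted from the RefSeq start, the first base of the match was at position -87 in MINOS1 and at positions -212 and -33 in IMMT. Both IMMT matches lie inside the IMMT row, which begins upstream of that RefSeq start. The APOO match, at position -247, lies inside the row of CXorf58. The row of C19orf70 begins upstream of both of its RefSeq starts, outside the windows that were read. The members with a match had log2 ratios of -0.61 (MINOS1), -0.43 (APOO) and -0.01 (IMMT, with 2 matches). Those with none in these windows had -0.58 (C19orf70), -0.42 (CHCHD6), -0.03 (CHCHD3) and 0.34 (APOOL). The core TGCGCA of NRF1 sites, which is its own reverse complement, was found in IMMT alone (9.88% of protein-coding promoters), and AAGATGG, the core of YY1 sites, in no member (6.04%). The presence or absence of these letters is a description of the windows and not of binding.

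Transcript length moved with the ratios between the libraries. Over all genes the median log2 ratio was -0.39 for canonical transcripts of up to 600 bases and 0.30 for those above 6000 bases, and a length was found for 92.6% of the expressed rows. C19orf70 (516 bases), CHCHD6 (1000), APOO (1122), CHCHD3 (1604), IMMT (2689) and APOOL (6480) all lay within the middle 50% of genes of their length class. MINOS1 (3723 bases) was the exception. Genes of 3000 to 4000 bases had a median of 0.08 (interquartile range -0.14 to 0.29), and MINOS1 at -0.61 was at percentile 3.30 of these 2124 genes. The part of transcript length in the MICOS ratios was not tested.

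Outer membrane partners of MICOS were close to their WT level. SAM50 and the metaxins form, with DNAJC11 and ARMC1, the bridge from MIC60 to the outer membrane. None of these 6 genes passed 1.49-fold in either direction, beside 7.83% of all genes lower and 10.5% higher. The median log2 ratio of the 6 was 0.02, close to that of all genes. SAMM50, the β-barrel protein bound by MIC60, had 51.8 FPKM in WT cells against 46.5 in PERK-KO cells, a log2 ratio of -0.16 (-0.26 to -0.05). It was the single gene of the list with confidence intervals apart. Among all genes, 18.7% were apart with the lower value in PERK-KO cells and 26.1% with the higher. MTX2 had 26.0 and 25.9 FPKM.

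Among 13 genes that shape cristae or their rims, 2 were lower past 1.49-fold and none higher, beside 7.83% and 10.5% of all genes, and the median was 0.01. Confidence intervals were apart in 6 of them with the lower value in PERK-KO cells and in 4 with the higher, beside 18.7% and 26.1% of all genes. The 2 called genes, ATP5I and CHCHD2, have short transcripts (303 and 797 bases), in length classes with medians of -0.39 and -0.38, and the part of length was not tested. ATP5I, a small ATP synthase subunit at the dimer interface that curves the crista rim, had 856 FPKM in WT cells against 487 in PERK-KO cells, a log2 ratio of -0.81 (-0.94 to -0.69). Its partner ATP5L had 135 and 103 FPKM, a log2 ratio of -0.39. CHCHD2, an intermembrane space protein linked to MICOS, had 652 and 438 FPKM and passed the threshold narrowly with a log2 ratio of -0.58. OPA1, the inner membrane fusion GTPase that narrows crista junctions, had 14.9 FPKM in WT cells against 17.1 in PERK-KO cells. The proteases that cleave it were higher in PERK-KO cells without passing 1.49-fold, with log2 ratios of 0.38 for OMA1 and 0.36 for YME1L1 and confidence intervals apart.

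MIC19 and MIC25 enter the intermembrane space through the MIA40 oxidative import route. None of its 3 transcripts listed here passed 1.49-fold in either direction, beside 7.83% of all genes lower and 10.5% higher. CHCHD4, which encodes MIA40, had 15.8 FPKM in WT cells against 16.9 in PERK-KO cells, with overlapping intervals. GFER, the sulphydryl oxidase that recharges MIA40, had a log2 ratio of -0.24, and AIFM1, which holds MIA40 at the inner membrane, one of 0.24. Of 5 other genes named for the CHCH domain, 3 were lower past 1.49-fold and none higher, beside the same 7.83% and 10.5% of all genes. CHCHD1, a subunit of the mitochondrial ribosome, had 84.3 FPKM and 47.1, a log2 ratio of -0.84, and CHCHD5 had 51.6 and 32.1, a log2 ratio of -0.68. CHCHD2 was the third, and these 3 transcripts are also short, with 850 bases for CHCHD1 and 523 for CHCHD5, in the classes with medians of -0.38 and -0.39. CHCHD10 had 62.5 and 67.4 FPKM with overlapping intervals, and CHCHD2, CHCHD4 and CHCHD10 also stand in the lists above.

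**Figure D3:**
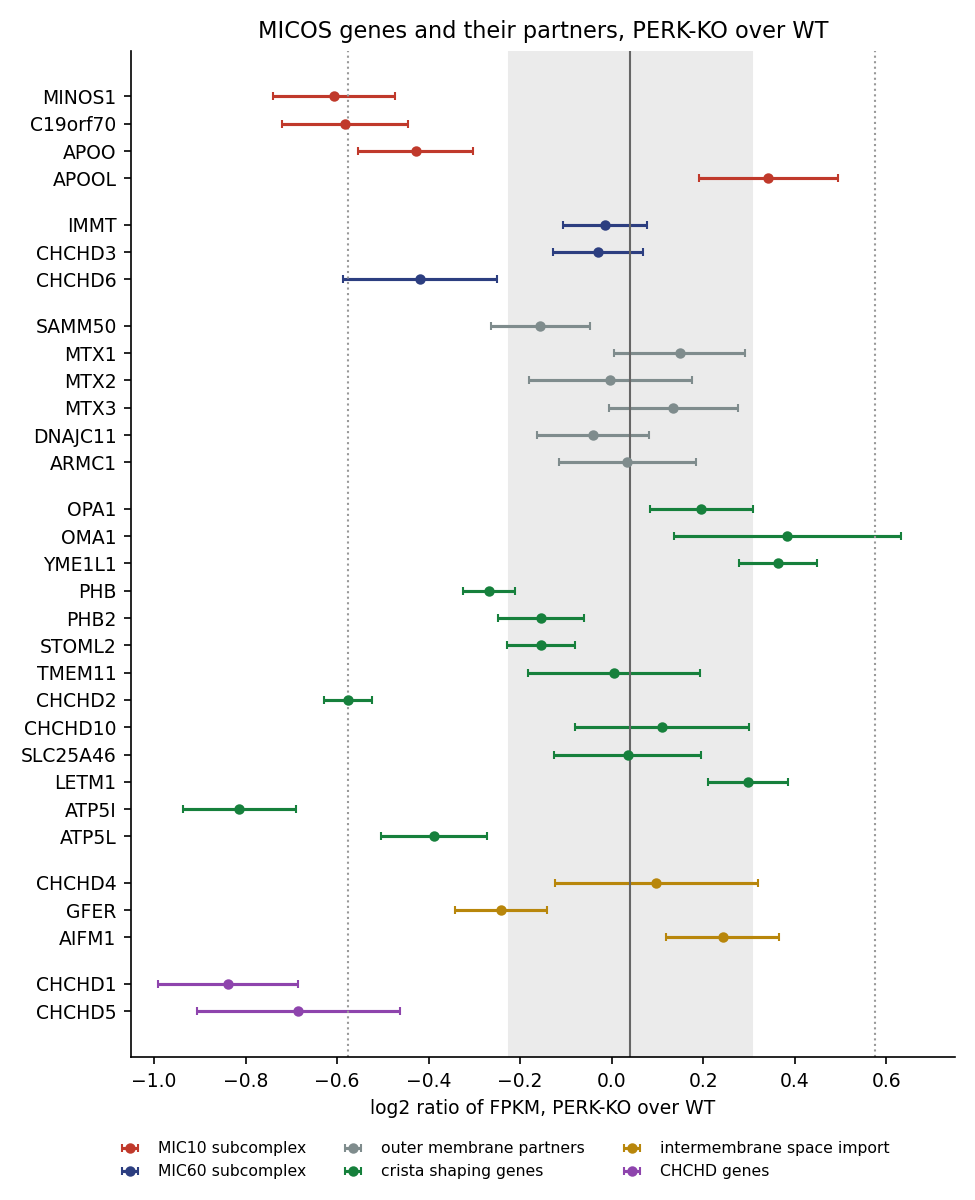
Log2 ratio of FPKM, PERK-KO over WT, for the 7 MICOS genes and the genes of 4 partner lists, with bars from the confidence limits of both libraries (1 library per genotype). The solid line and grey band give the median and interquartile range of all genes and the dotted lines mark 1.49-fold, which MINOS1, C19orf70, CHCHD2, ATP5I, CHCHD1 and CHCHD5 pass on the lower side.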

How the data were processed

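RNA was sequenced from HEK293 cells after poly(A) selection, with 1 library per genotype. The authors mapped reads to GRCh37/hg19 with TopHat2 2.0.13 and computed FPKM with Cufflinks 2.2.1, and the deposited FPKM tables list each gene with lower and upper confidence limits. Versions are from the submitters' processing notes. Whether multiply mapped reads were weighted, and which annotation was used, is not given in the sources used here, and either can shift short or overlapping genes.

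Ratios are PERK-KO over WT without a pseudocount. Intervals of ratios add the log2 half-widths of the confidence limits in quadrature. Genes that reached 1 FPKM in one library or both served as background, and calls used the study's 1.49-fold threshold. That fold alone called 1142 genes lower, more than the study lists, so the calls are not the study's own gene set. No p-value was computed, because each genotype had 1 library. Table starts were shifted by 1 base to count from 1. Lengths came from GENCODE 44 on GRCh37, promoters from RefSeq. Scaling, pseudocount, threshold, filter and choice of members were varied. The members and gene lists were chosen with earlier results of these data known. Named genes were the members, EIF2AK3, the lists, overlapping or adjoining rows, and the 3 genes closest in level. The code for the fold calls was run on simulated counts with planted changes well above 1.49-fold and no spread between cultures. That run does not test calls near the threshold. Python 3.11.15 with numpy 2.4.6, pandas 2.3.3 and matplotlib 3.10.9 was used.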

Additional observations from a re-analysis of the deposited data

How the results depend on the processing

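With 1 library per genotype, neither leaving out a replicate nor a paired analysis was possible, and counting depth, not biological spread, sets the intervals. Pseudocounts of 0.1 and 1 and rescaling by the median or the 75th percentile left the 2 lower members and their median within error. Conversion to TPM gave 0 lower members, a median log2 ratio of -0.216 and a log2 ratio of the summed FPKM of -0.131. TPM without small RNA genes, chosen after seeing the data, gave 0, -0.197 and -0.112. A 2-fold threshold left 0 lower members, and a 1.2-fold threshold gave 4 lower and 1 higher. Leaving out MINOS1 moved the median to -0.224. The difference between the subcomplexes ranged from -0.554 to -0.378. Rescaling by the median turned the medians of the outer membrane partners and of the crista shaping genes to -0.0207 and -0.0309. Each rescaling, and conversion to TPM, adds a single constant to every log2 ratio. That constant was -0.0367 for the median and 0.203 for TPM over all rows. What lies behind these constants was not tested.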

Other observations

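The geometric mean of the 7 MICOS genes was 48.9 FPKM in WT cells against 41.1 in PERK-KO cells. Among 13792 genes that reached 1 FPKM in both libraries, the 3 genes closest to that pair of values on the log2 scale were TMEM50A (48.7 and 41.3 FPKM), CDCA3 (48.8 and 40.8) and HMX1 (48.5 and 40.8). With 2 libraries this likeness describes level and ratio only.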
